A study of Capra hircus with 3 samples.

Results

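Amino acid and monocarboxylate transporters were followed in a back muscle of the goat (Capra hircus), the longissimus dorsi, at 3 ages after birth. The members were all entries of the deposited expression table whose product text starts with solute carrier family 1, 3, 6, 7, 16, 36, 38 or 43, which gave 74 of 24689 entries. Messenger RNA was sequenced in 1 library per stage: kid (2 months), youth (9 months) and adult (24 months). The sources used here do not state breed, sex, or whether tissue of several animals was pooled. With 1 library per stage there was no replicate check and no test, and each difference below describes these libraries, not the ages. Of the 74 entries, 73 belong to genes described as carriers or their copies, and SLC7A6OS is the gene on the opposite strand of SLC7A6 and no transporter. For 6 entries the gene symbol was read from the product text, because the gene table gave a LOC name.

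Muscle takes up amino acids as building blocks of protein and releases glutamine and alanine to the blood. Carriers of the SLC38 family couple the uptake of small neutral amino acids or glutamine to sodium. Carriers of the SLC7 light chain group exchange amino acids across the membrane and reach the surface only when bound to a heavy chain of the SLC3 family. The SLC16 family is named after the monocarboxylate transporters, which move lactate, pyruvate and ketone bodies together with protons. In muscle of rodents and humans, MCT4 (SLC16A3) is best known for lactate export from glycolytic fibres and MCT1 (SLC16A1) for lactate uptake into oxidative fibres. The SLC6 family includes the creatine carrier SLC6A8, through which muscle obtains creatine made in other organs.

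Levels are given as FPKM, a fragment count divided by gene length and library total, as the authors deposited them. The totals behind the values, worked out from the smallest steps between them, were 15829474 reads for kid, 14920689 for youth and 18399385 for adult. Each ratio of FPKM is given with the exact 95% interval of the reads of both libraries, which covers counting error only, and a difference is called beyond counting error where this interval left out 1. The fibre markers ACTA1, CKM and MYLPF stood at 8969 FPKM or more in every library. Although the protocol label names mammary tissue, 4 of 5 markers of mammary epithelium (CSN2, CSN3, CSN1S1 and LALBA) had the value 0 throughout, and the remaining one, LTF, was at 0.362 FPKM in kid and listed at 0 in youth and adult.

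The transporter entries covered a wide range of levels. Averaged over the libraries, 37 of the 74 entries reached 1 FPKM, as did 12121 of all 24689 entries. Of the others, 27 lay below it and 10 were listed at 0 throughout, as were 5823 of all entries. The 37 had a median level of 5.01 FPKM over the libraries, against 7.83 FPKM for all 12121 entries that passed this filter. The entry nearest above the limit was the little-studied SLC38A6, at a mean of 1.09 FPKM, and the nearest below was SLC16A14, at a mean of 0.937 FPKM. Among the 10 entries at 0 were SLC7A11, the cystine and glutamate exchanger, SLC16A8, the lactate carrier MCT3 of the retinal pigment epithelium, and SLC38A5. The other 7 were SLC6A5, SLC6A16, SLC6A18, SLC7A13, SLC7A14, SLC38A11 and the SLC7A13-like copy LOC102175598. In a gene of 1 kb, 3 reads correspond to 0.190 FPKM in kid, 0.201 FPKM in youth and 0.163 FPKM in adult, which is the level that a listed 0 still allows for a gene of that length.

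The same 5 carriers were the most abundant members in all 3 libraries, but their order differed. In kid, SLC38A2 came first, followed by SLC6A8, SLC16A1, SLC43A2 and SLC16A3. In youth the order was SLC6A8, SLC38A2, SLC43A2, SLC16A1 and SLC16A3. In adult it was SLC6A8, SLC16A3, SLC16A1, SLC43A2 and SLC38A2. The system A carrier SLC38A2 thus held the highest place in kid and the lowest of the 5 in adult. These 5 made up 53.3%, 52.3% and 61.3% of the summed FPKM of all members in kid, youth and adult. The sum itself was 447, 450 and 516 FPKM in the same order. Without the 5 it was 209, 215 and 199.7 FPKM, so the higher sum of the adult library lay within the 5. In bulk tissue, fewer cells of a type and less RNA per cell cannot be told apart, here and in all that follows.

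**Figure D1:**
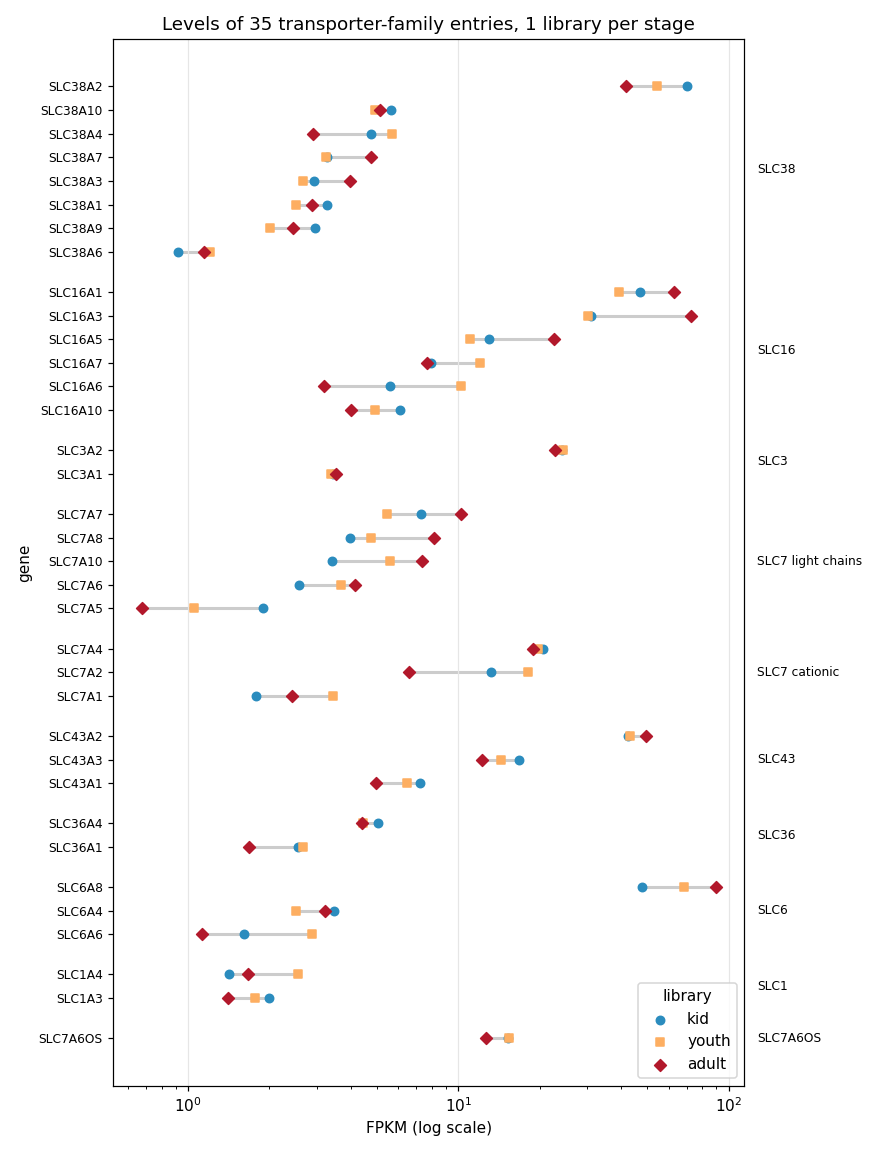
FPKM on a log axis of 35 of the members with a mean of at least 1 FPKM, by gene and grouped by family, with one marker per library and a grey line from the lowest to the highest value. SLC6A8 stands at 47.8, 68.5 and 89.7 FPKM in kid, youth and adult, while SLC38A2 stands at 70.0, 54.4 and 41.8 FPKM.

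The youth and kid libraries, at 9 and 2 months, give the earlier step of growth. The carriers that stood highest in youth relative to kid were the cationic amino acid carrier SLC7A1 at 3.45 against 1.79 FPKM and SLC16A6, a relative of the lactate carriers, at 10.2 against 5.59 FPKM. On the scale of log2(FPKM + 1), these were the 2 of 37 members at least 1.5-fold higher (1.5% of all 12121 entries were), and 0 members were at least 1.5-fold lower (3.77% of all entries). At the 2-fold limit, 0 were higher and 0 lower, against 0.421% and 0.627% of all entries. Beyond counting error, 11 members were higher (11.6% of all entries) and 10 lower (26.9% of all entries). The median difference was -0.03 over the 37 members and -0.08 over all entries. This scale understates differences of low genes, and SLC7A10, SLC6A6, SLC1A4 and SLC16A7 lay just below the 1.5-fold limit, at log2 differences of 0.58, 0.57, 0.56 and 0.55. The count of higher members therefore moved with the scaling, for example to 7 after median-of-ratios scaling. That scaling also moved the median of all entries, to 0.0055, so the 1.5% above does not apply to it.

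The adult and youth libraries, at 24 and 9 months, give the later step. The lactate carriers SLC16A1 and SLC16A3 stood higher in adult, led by SLC16A3 at 72.5 against 30.2 FPKM, while the arginine carrier SLC7A2 was lower at 6.55 against 18.1 FPKM and SLC16A6 at 3.19 against 10.2 FPKM. Of 37 members, 5 were at least 1.5-fold higher: SLC16A1, SLC16A3, SLC16A5, SLC7A7 and SLC7A8 (5.4% of all entries were). Another 5 were at least 1.5-fold lower: SLC16A6, SLC16A7, SLC38A4, SLC6A6 and SLC7A2 (5.45% of all entries). At the 2-fold limit, 1 member was higher (1.01% of all entries) and 2 were lower (1.07%). Beyond counting error, 10 members were higher (22.3% of all entries) and 12 lower (27% of all entries). The median difference was -0.01 over the members and -0.02 over all entries, and its median size without sign was 0.33 and 0.22.

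The adult and kid libraries, at 24 and 2 months, span the whole series. SLC16A3, SLC16A5, SLC6A8, SLC7A8 and SLC7A10 were at least 1.5-fold higher, which is 5 of 37 members (2.6% of all entries). SLC16A6, SLC38A2, SLC7A2 and SLC7A5, the light chain of the leucine carrier LAT1, were at least 1.5-fold lower, which is 4 of 37 (6.64% of all entries). SLC16A3 was the 1 member at least 2-fold higher (0.536% of all entries), and 0 were 2-fold lower (1.22%). Beyond counting error, 11 members were higher (16.7% of all entries) and 12 lower (34.6% of all entries). The median difference was -0.09 over the members and -0.10 over all entries, and its median size without sign was 0.40 and 0.22. Each library enters a pair of these comparisons, so a value particular to 1 library appears in both. The members had a lower median level than all entries, as given above, and its part in the sizes of the differences was not tested.

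Across all 3 libraries, the members fell into few steady courses. SLC6A8, SLC7A8 and SLC7A10 were higher beyond counting error at both steps, which is 3 of 37 members (8.11%) and 1.32% of all entries; for SLC7A8 the interval of the earlier step only just left out 1. SLC38A2 and SLC43A3 were lower beyond counting error at both steps, which is 2 of 37 (5.41%) and 4.78% of all entries. For 7 members (18.9%, against 30.4% of all entries) no pair of libraries differed beyond counting error, among them SLC3A1, SLC3A2, SLC7A4, SLC36A4, SLC38A6 and SLC38A10. The highest library was kid for 13 members (35.1%, against 44.4% of all entries), youth for 11 (29.7%, against 25.6%) and adult for 13 (35.1%, against 30%). The range of FPKM reached 2-fold in 8 members (21.6%) and in 8.31% of all entries.

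**Figure D2:**
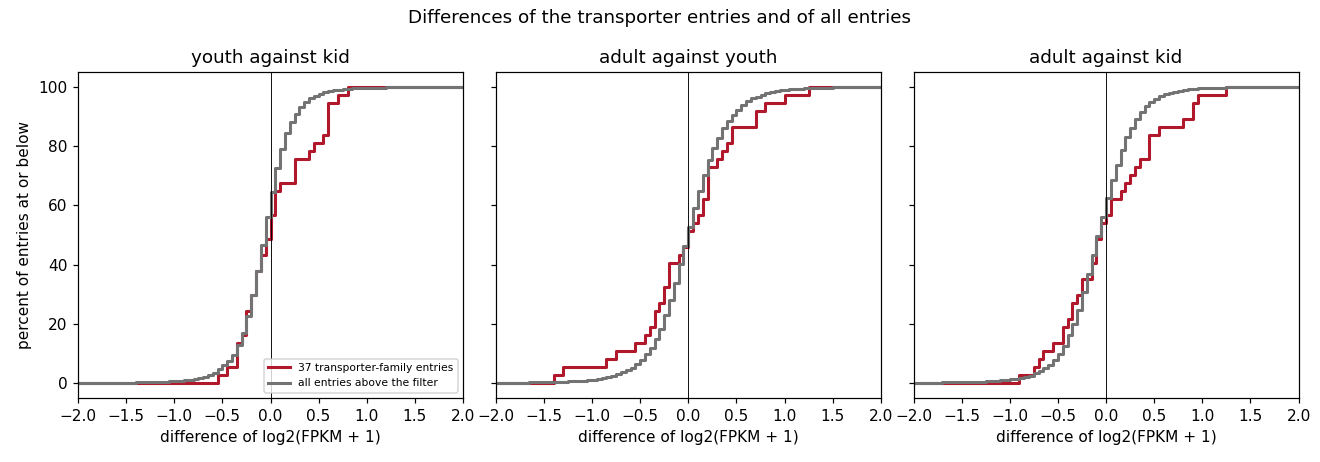
Percent of entries (y axis) at or below each difference of log2(FPKM + 1) (x axis) for the 37 members and for all 12121 entries, in 3 comparisons with the later stage minus the earlier. The median size of the differences was 0.33 for the members and 0.22 for all entries in adult against youth, where 5 members lie at least 1.5-fold above and 5 at least 1.5-fold below youth.

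Among the monocarboxylate transporters, the pair that carries most lactate in muscle stood highest in the adult library. SLC16A3 (MCT4, gene 102177468) was at 30.9, 30.2 and 72.5 FPKM in kid, youth and adult. Kid and youth did not differ beyond counting error, and adult stood apart, 2.40-fold over youth (2.24 to 2.57) and 2.35-fold over kid (2.20 to 2.51). SLC16A1 (MCT1, gene 100861278) was at 47.2, 39.5 and 63.0 FPKM in kid, youth and adult. It was 1.59-fold higher in adult than in youth (1.51 to 1.69) and 1.19-fold lower in youth than in kid (1.12 to 1.27). The level of SLC16A3 relative to SLC16A1 was 0.654 in kid, 0.765 in youth and 1.15 in adult, so their order was the other way round in adult. The high-affinity pyruvate and lactate carrier SLC16A7 (MCT2) was at 7.90, 12.04 and 7.67 FPKM in kid, youth and adult, and so stood highest in youth, 1.52-fold over kid (1.22 to 1.90). These lactate carriers, with SLC16A8 at 0, summed to 86.0, 81.7 and 143 FPKM, of which SLC16A3 held 35.9%, 36.9% and 50.6%.

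The other members of the SLC16 family did not share a direction. SLC16A5 (MCT6), known as a carrier of some drugs, was at 13.0, 11.1 and 22.6 FPKM in kid, youth and adult, 2.04-fold higher in adult than in youth (1.82 to 2.29). SLC16A6 (MCT7), a ketone body carrier in zebrafish liver, was at 5.59, 10.2 and 3.19 FPKM, the widest range of the family. It was 1.83-fold higher in youth than in kid (1.4996 to 2.25), and adult was 3.21-fold below youth (2.55 to 4.07), from 103 reads in adult and 268 in youth. SLC16A10, which carries aromatic amino acids, was at 6.08, 4.93 and 4.02 FPKM in kid, youth and adult, and adult was 1.51-fold below kid (1.21 to 1.89). The 6 low entries of the family were SLC16A4, SLC16A9, SLC16A11, SLC16A12, SLC16A13 and SLC16A14, none above 1.54 FPKM in any library. For SLC16A11, SLC16A12, SLC16A13 and SLC16A14 the kid library had the highest listed value and the adult library the lowest. Of these, SLC16A14 differed beyond counting error in each comparison and the others in none. The same order held for 27.1% of all entries above the filter.

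The SLC38 family was dominated by 1 gene, which was lower at each later stage. SLC38A2 (SNAT2, gene 102191114), the system A carrier whose amount cells raise when amino acids are scarce, was at 70.0, 54.4 and 41.8 FPKM in kid, youth and adult. All 3 pairs of libraries differed beyond counting error. Youth was 1.29-fold below kid (1.23 to 1.34), adult 1.30-fold below youth (1.24 to 1.37) and adult 1.68-fold below kid (1.61 to 1.75). Its share of the summed FPKM of the family was 74.2%, 70.9% and 64.1%. The system A carrier SLC38A1 (SNAT1) was at 3.27, 2.51 and 2.88 FPKM in kid, youth and adult, highest in kid as well. SLC38A4, another system A carrier, was at 4.74, 5.68 and 2.91 FPKM, and adult was 1.95-fold below youth (1.61 to 2.38).

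Of the 8 members of the SLC38 family above the filter, 2 were higher and 2 lower beyond counting error in adult than in youth. The lower ones were SLC38A2 and SLC38A4, and the higher ones SLC38A3 and SLC38A7. SLC38A3 (SNAT3), a glutamine carrier of system N, was at 2.92, 2.67 and 3.97 FPKM in kid, youth and adult, 1.48-fold higher in adult than in youth (1.18 to 1.87). SLC38A7, which exports glutamine from lysosomes, was at 3.26, 3.25 and 4.75 FPKM, 1.46-fold higher in adult than in youth (1.21 to 1.77). Kid and youth did not differ beyond counting error for either gene. SLC38A9, which senses arginine at the lysosome for the growth kinase complex mTORC1, was at 2.94, 2.01 and 2.45 FPKM, and youth was 1.46-fold below kid (1.11 to 1.95). SLC38A10 was at 5.63, 4.92 and 5.14 FPKM and SLC38A6 at 0.916, 1.21 and 1.15 FPKM, and neither differed beyond counting error in any comparison. SLC38A8 lay below the filter at 0.628, 0.102 and 0.166 FPKM.

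The heavy chains of the heteromeric amino acid transporters stood at about the same level in all libraries, while their light chains did not. SLC3A2 (CD98 heavy chain, gene 102187568) was at 24.3, 24.5 and 22.7 FPKM in kid, youth and adult. Every interval of its ratios included 1 and lay between 0.842 and 1.12. SLC3A1, the heavy chain best known from kidney, was at 3.43, 3.37 and 3.52 FPKM, also without a difference beyond counting error.

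SLC7A8 (LAT2), a light chain that exchanges large and small neutral amino acids, was at 3.98, 4.77 and 8.13 FPKM in kid, youth and adult. Adult stood apart from the others, 1.71-fold over youth (1.47 to 1.98) and 2.04-fold over kid (1.75 to 2.39). SLC7A10 (asc-1), which carries alanine, serine and cysteine, was at 3.41, 5.59 and 7.36 FPKM, higher at each later stage and 2.16-fold higher in adult than in kid (1.66 to 2.83). This gene is also known from fat cells, and the 4 fat-cell markers matched (ADIPOQ, PLIN1, CIDEC and LEP) summed to 85.8, 29.96 and 45.6 FPKM in kid, youth and adult, lowest in youth; their part in its level was not tested. SLC7A6 (y+LAT2) was at 2.57, 3.68 and 4.14 FPKM, 1.43-fold higher in youth than in kid (1.19 to 1.72). SLC7A7 (y+LAT1), which exchanges cationic for neutral amino acids, was at 7.28, 5.47 and 10.3 FPKM, 1.87-fold higher in adult than in youth (1.56 to 2.26). It is known from macrophages in humans, whose 5 matched markers summed to 53.8, 61.3 and 30.04 FPKM, lowest in the adult library where SLC7A7 was highest; their part in its level was not tested.

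SLC7A5 (LAT1), the light chain best known for leucine uptake, was lower in adult than in kid, while the other 4 light chains above the filter were higher. It was at 1.90, 1.05 and 0.676 FPKM in kid, youth and adult, from 46, 24 and 19 reads. Adult was 2.81-fold below kid (1.62 to 5.09) and youth 1.81-fold below kid (1.08 to 3.09), while adult and youth did not differ beyond counting error (ratio 0.642, 0.332 to 1.22). Of the FPKM summed over the 6 light chains that pair with SLC3A2 (SLC7A5, SLC7A6, SLC7A7, SLC7A8, SLC7A10 and SLC7A11), SLC7A5 held 9.94%, 5.12% and 2.21%. That sum was 19.1, 20.6 and 30.6 FPKM in kid, youth and adult. The level of SLC3A2 relative to it was 1.27, 1.19 and 0.743, so in adult alone the light chains together exceeded the heavy chain. SLC7A9, the partner of SLC3A1, was below 0.173 FPKM in every library.

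Of the cationic amino acid carriers found by the rule, SLC7A2 and SLC7A1 both stood highest in youth. SLC7A2 (CAT2, gene 102170023), which takes up arginine and lysine, was at 13.3, 18.1 and 6.55 FPKM in kid, youth and adult. It rested on 1459, 1875 and 838 reads, and all libraries differed beyond counting error: youth was 1.36-fold over kid (1.27 to 1.46) and adult 2.76-fold below youth (2.54 to 2.997). SLC7A1 (CAT1), the general carrier of cationic amino acids, was at 1.79, 3.45 and 2.43 FPKM. Youth was 1.92-fold over kid (1.39 to 2.69), and adult and kid did not differ beyond counting error (ratio 1.36, 0.968 to 1.91). The level of SLC7A2 relative to SLC7A1 was 7.40, 5.24 and 2.70 in kid, youth and adult. SLC7A4, a relative without shown transport of cationic amino acids, was at 20.5, 19.8 and 19.0 FPKM and did not differ beyond counting error in any comparison. SLC7A3 was at 0.0296 FPKM or less.

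**Figure D3:**
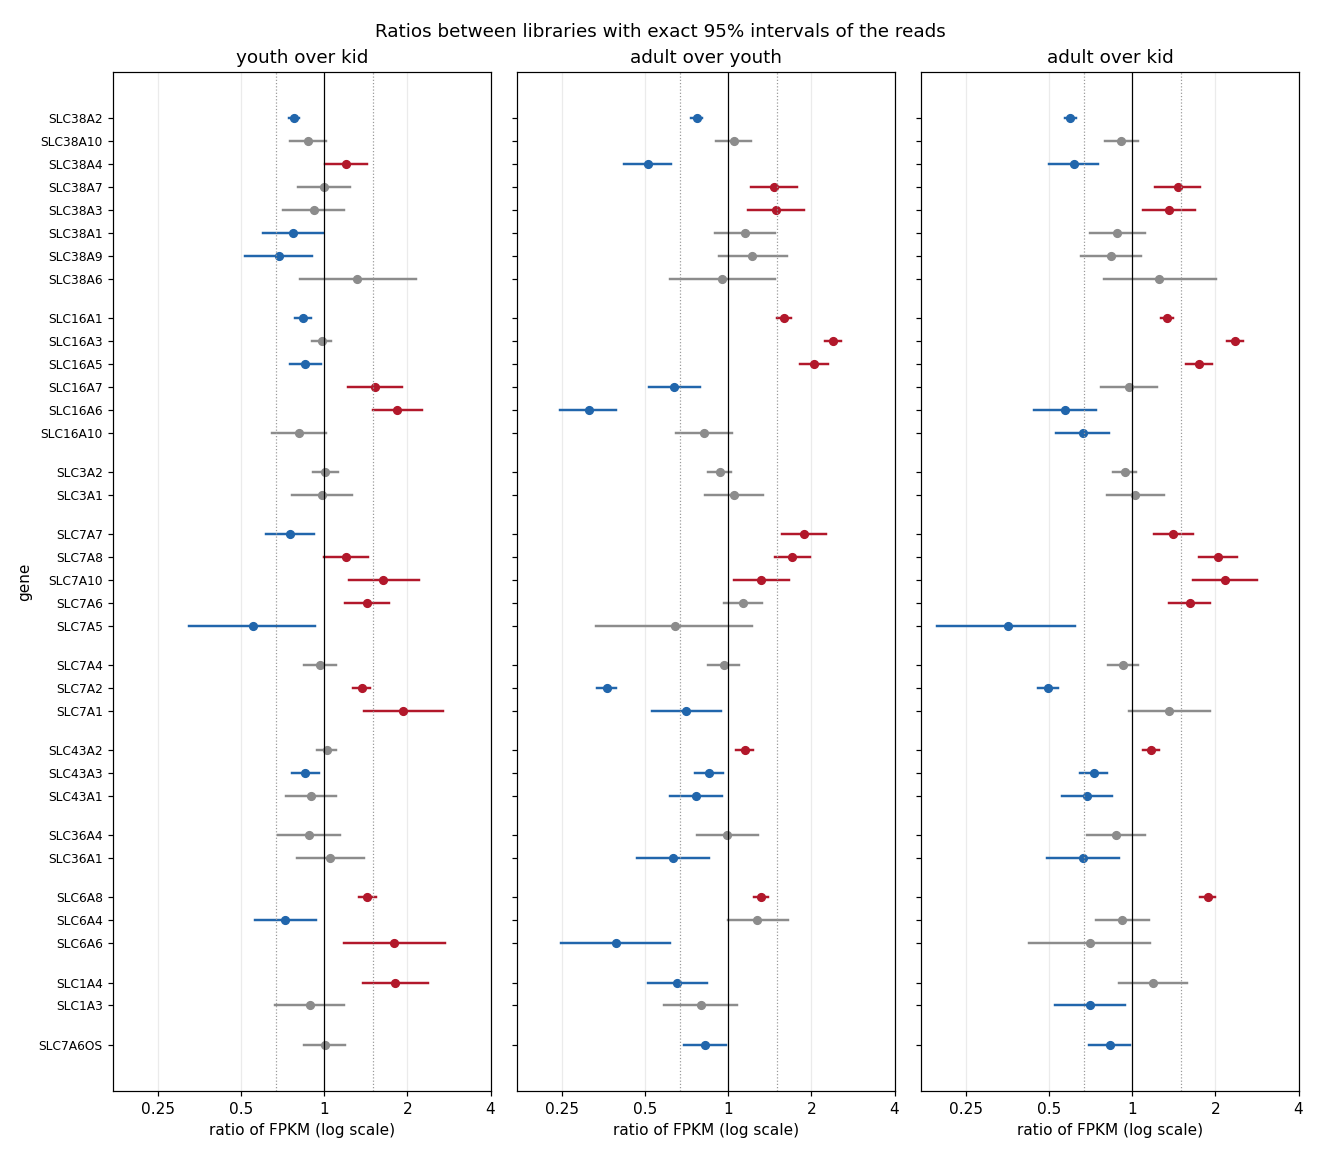
Ratio of FPKM on a log axis for 35 members in 3 comparisons (later over earlier stage), with bars for the exact 95% interval of the reads, red or blue where it left out 1, grey where it included 1, and dotted lines at 1.5-fold. SLC16A6 and SLC7A2 lie to the right of 1 in youth over kid and to the left in adult over youth, at 0.312 and 0.362.

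The SLC43 family, which needs no heavy chain, had no pair of libraries 1.5-fold apart. SLC43A2 (LAT4, gene 102175438), a carrier of large neutral amino acids, was at 42.3, 43.1 and 49.4 FPKM in kid, youth and adult, 1.15-fold higher in adult than in youth (1.07 to 1.23). SLC43A1 (LAT3), its close relative, was at 7.22, 6.48 and 4.95 FPKM, 1.46-fold lower in adult than in kid (1.18 to 1.800). SLC43A3, which carries purine nucleobases, was at 16.8, 14.3 and 12.2 FPKM and lower beyond counting error at both steps. SLC43A2 held 63.7%, 67.4% and 74.3% of the summed FPKM of these genes. Among the proton-coupled amino acid carriers, SLC36A1 (PAT1), which exports amino acids from lysosomes, was at 2.54, 2.67 and 1.69 FPKM, and adult was 1.58-fold below youth (1.17 to 2.14). SLC36A4 (PAT4) was at 5.04, 4.43 and 4.40 FPKM without a difference beyond counting error, and SLC36A2 and SLC36A3 were at 0.118 FPKM or less.

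In the SLC6 family the creatine carrier stood out by level. SLC6A8 (gene 102182486) was at 47.8, 68.5 and 89.7 FPKM in kid, youth and adult, from 1442, 1947 and 3144 reads. It was higher at each later stage, 1.43-fold in youth over kid (1.34 to 1.53), 1.31-fold in adult over youth (1.24 to 1.39) and 1.88-fold in adult over kid (1.76 to 2.00). The taurine carrier SLC6A6 (gene 102170561) was at 1.61, 2.87 and 1.13 FPKM, from 38, 64 and 31 reads. Youth stood above both others, 1.79-fold over kid (1.18 to 2.74), and adult was 2.55-fold below youth (1.63 to 4.05). The serotonin carrier SLC6A4 was at 3.48, 2.52 and 3.20 FPKM, 1.38-fold lower in youth than in kid (1.07 to 1.79). The 14 entries of the family below the filter were under 0.847 FPKM in every library, and the highest of them was the glycine carrier SLC6A9 at 0.840, 0.846 and 0.488 FPKM.

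The SLC1 entries found by product text had low levels, 2 of 6 of them above the filter. SLC1A4 (ASCT1), which exchanges alanine, serine and cysteine, was at 1.41, 2.56 and 1.67 FPKM in kid, youth and adult, highest in youth by 1.81-fold over kid (1.38 to 2.38). SLC1A3, a glutamate carrier best known from glia, was at 1.99, 1.77 and 1.40 FPKM, 1.42-fold lower in adult than in kid (1.07 to 1.91). The other 4 entries of the family were below 0.157 FPKM. The gene SLC7A6OS was at 15.3, 15.4 and 12.6 FPKM, and without a known strand setting its reads and those of SLC7A6 cannot be told apart where these genes overlap. Leaving it out gave 36 members, a median difference of 0.02 in adult against youth, and the same counts at 1.5-fold and 2-fold. SLC1A5 (ASCT2), the glutamine exchanger, is described by another product text and did not fall under the rule; it was looked up after the values of the members were seen. Its entry was at 12.5, 15.4 and 22.1 FPKM in kid, youth and adult, 1.44-fold higher in adult than in youth (1.27 to 1.63), and another entry of the same product text was at 9.47, 8.97 and 16.03 FPKM. These entries, like the 12 copies described as cationic amino acid transporter 3-like, may share reads, so single values are uncertain. Those 12 copies, also outside the rule, summed to 10.89, 4.015 and 10.65 FPKM in kid, youth and adult. Their sum was thus lowest in youth, where SLC7A1 and SLC7A2 were highest. Most of it came from LOC102186682, at 7.40, 2.72 and 8.93 FPKM from 72, 25 and 101 reads. Only 2 of the 12 copies passed the filter, so the sum does not give a course shared by all.

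Summed by group, the SLC16 and SLC6 families were higher in adult and the SLC38 family lower. These sums rested largely on a few abundant genes and do not describe every member. The SLC16 family summed to 118, 113 and 177 FPKM in kid, youth and adult. The SLC6 family summed to 59.5, 79.9 and 100.25 FPKM, most of it SLC6A8. The SLC38 family summed to 94.4, 76.8 and 65.2 FPKM, of which SLC38A2 made up 70.0, 54.4 and 41.8 FPKM. Of its 8 members above the filter, 2 were higher and 2 lower beyond counting error in adult than in youth. The cationic carriers with their relatives SLC7A4 and SLC7A14 summed to 35.6, 41.3 and 28.0 FPKM. Without these relatives, SLC7A1, SLC7A2 and SLC7A3 summed to 15.1, 21.55 and 9.00 FPKM. The SLC43 family summed to 66.4, 63.9 and 66.6 FPKM.

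**Figure D4:**
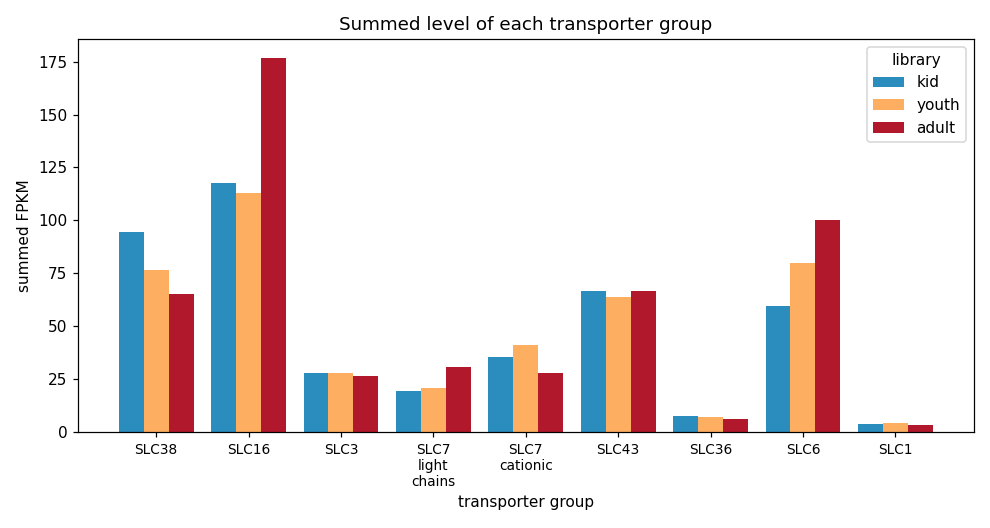
Summed FPKM (y axis, from 0) of each transporter group in the kid, youth and adult libraries, one bar per library and no error bars, since each stage had 1 library. The SLC16 bar is highest in adult at 177 FPKM, and the SLC38 bar is highest in kid at 94.4 FPKM. The cationic SLC7 bars include the relatives SLC7A4 and SLC7A14.

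Among the proteins that escort the carriers, BSG (basigin), which brings MCT1 and MCT4 to the surface, was at 93.3, 70.1 and 121 FPKM in kid, youth and adult. It was, like SLC16A1, lowest in youth and highest in adult, 1.73-fold over youth (1.62 to 1.84). EMB (embigin), the partner of MCT2, was at 0.582, 0.393 and 0.364 FPKM. NPTN (neuroplastin), a relative of basigin that also pairs with these carriers, was at 40.7, 33.9 and 37.6 FPKM. Of 10 genes of lactate and pyruvate metabolism above the filter, 2 were at least 1.5-fold higher in adult than in youth and 0 lower. Of all entries, 5.4% were higher and 5.45% lower. The median was 0.31, against -0.02 over all entries. The 2 higher genes were PDHA1, a subunit of pyruvate dehydrogenase, at 281 against 174 FPKM, and MPC2, a subunit of the mitochondrial pyruvate carrier, at 223 against 146 FPKM. LDHA, the lactate dehydrogenase subunit of glycolytic fibres, was at 983, 1047 and 1026 FPKM in kid, youth and adult. LDHB, its counterpart of oxidative tissue, was at 125, 106 and 138 FPKM.

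Genes of amino acid use differed in part beside the carriers. In branched chain amino acid breakdown, 1 of 20 genes was at least 1.5-fold higher in adult than in youth and 0 lower, near the 5.4% and 5.45% of all entries. Counted by sign alone, 20 of the 20 were higher, against 47.3% of all entries. The median difference was 0.26, against -0.02 over all entries. In youth against kid 0 were higher and 2 lower, with 1.5% and 3.77% for all entries, and the median was -0.25, against -0.08 over all entries. Counted by sign alone, 17 of the 20 were lower and 3 higher there, against 64.3% and 35.7% of all entries. The 2 genes at least 1.5-fold lower were DBT at 4.40 against 7.39 FPKM and PCCA at 8.46 against 13.7 FPKM. Of 17 genes of glutamine, glutamate and alanine metabolism, 4 were at least 1.5-fold higher in adult than in youth and 1 lower. For all entries these shares were 5.4% and 5.45%. The median of the 17 was 0.05, against -0.02 over all entries. GOT1, the cytosolic aspartate aminotransferase, was at 230 against 84.1 FPKM (2.73-fold, 2.61 to 2.86), and GOT2, GPT and ALDH4A1 were the other 3. GLUL, glutamine synthetase, was the lower one at 235 against 443 FPKM (1.88-fold, 1.84 to 1.93). In creatine supply, GATM, which makes the precursor of creatine, was at 4.13, 2.30 and 1.41 FPKM in kid, youth and adult, lower at each later stage. GAMT, which completes creatine, was at 14.1, 11.1 and 18.0 FPKM, 1.63-fold higher in adult than in youth (1.36 to 1.96). Mitochondrial creatine kinase CKMT2 was at 500.1, 438 and 899.7 FPKM.

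Genes that sense amino acids were 1.5-fold apart about as seldom as all entries. Of 32 mTORC1-related genes above the filter, 1 was at least 1.5-fold higher in youth than in kid and 0 lower, against 1.5% and 3.77% of all entries. In adult against youth 1 was higher and 2 lower, against 5.4% and 5.45% of all entries, and in adult against kid 2 were higher and 1 lower, against 2.6% and 6.64%. The first was FNIP2, a partner of folliculin, at 42.5 against 14.6 FPKM (2.92-fold, 2.68 to 3.18). In adult against youth, AKT1S1, an mTORC1 inhibitor also called PRAS40, was at 36.2 against 21.7 FPKM, while FNIP1 was at 12.2 against 22.3 FPKM and DEPTOR at 4.64 against 7.54 FPKM. The stress-induced SESN1, a relative of the leucine sensor SESN2, was at 55.5, 45.6 and 32.2 FPKM in kid, youth and adult, and was the 1 lower gene in adult against kid. Of 21 genes of the amino acid response, which ATF4 drives when amino acids run short, 0 were at least 1.5-fold higher and 2 lower in adult than in youth, against 5.4% and 5.45% of all entries. In adult against kid 0 were higher and 3 lower, against 2.6% and 6.64% of all entries. In youth against kid 1 was higher and 1 lower, against 1.5% and 3.77% of all entries. ATF4 itself was at 399.8, 467 and 511 FPKM in kid, youth and adult, and the 2 genes lower in adult than in youth were ATF3 at 69.2 against 150 FPKM and DDIT4 at 85.3 against 147 FPKM. Asparagine synthetase (ASNS), a target of ATF4, was at 1.65, 1.04 and 1.13 FPKM.

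**Figure D5:**
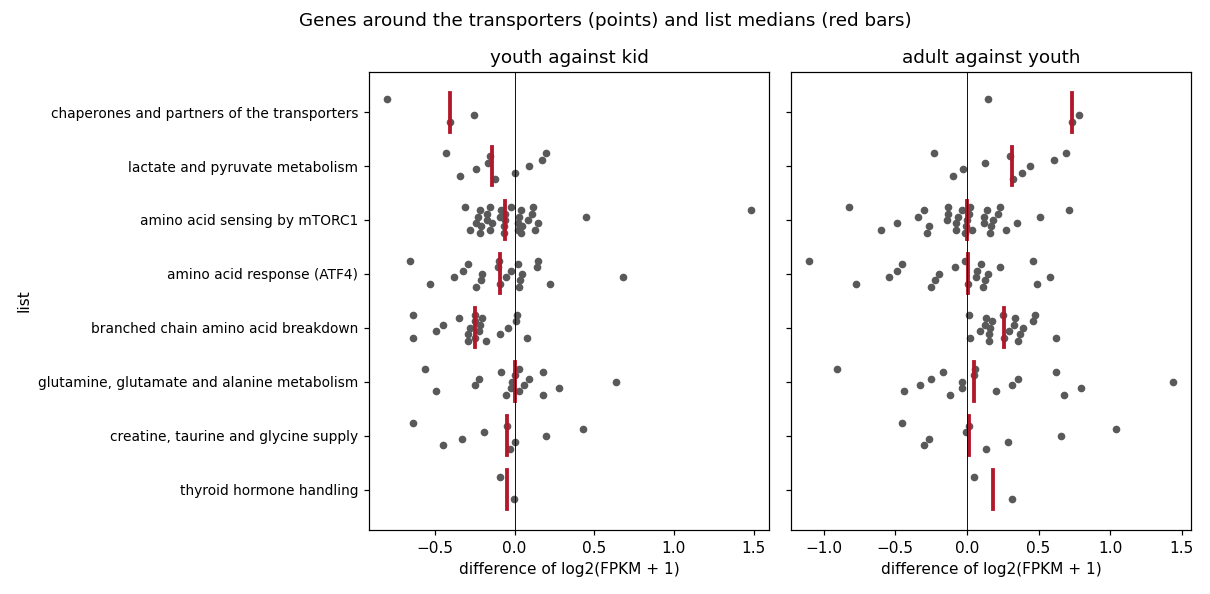
Difference of log2(FPKM + 1) (x axis) of genes around the transporters with a mean of at least 1 FPKM, one point per gene and one row per list, with a red bar at the list median, for youth against kid and adult against youth. The median of branched chain amino acid breakdown is -0.25 in youth against kid and 0.26 in adult against youth, and the point farthest right in the left panel is FNIP2.

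Markers of other cells in the muscle also differed between the libraries, and their part in the transporter levels was not tested. Schwann cell markers summed to 207, 121 and 79.2 FPKM in kid, youth and adult. Of 4 above the filter, 4 were at least 1.5-fold lower in youth than in kid (3.77% of all entries). In adult against kid 3 of them were lower (6.64% of all entries), and in adult against youth 1 (5.45% of all entries). Of 3 fat-cell markers above the filter, 3 were at least 1.5-fold lower in youth than in kid (3.77% of all entries). In adult than in kid 2 were lower (6.64% of all entries). In adult against youth 1 of them was higher (5.4% of all entries). Of 5 macrophage markers, 4 were at least 1.5-fold lower in adult than in youth (5.45% of all entries) and 5 in adult than in kid (6.64%). In youth against kid 0 of them were 1.5-fold apart (1.5% of all entries were higher and 3.77% lower). Fibroblast markers summed to 827, 1010 and 697 FPKM, endothelial markers to 158, 140 and 135 FPKM, and those of smooth muscle and pericytes to 275, 213 and 300.2 FPKM. T and natural killer cell markers summed to 7.44, 9.83 and 5.45 FPKM, and erythroid markers, of which 3 of 5 were matched, to 0.984, 0.812 and 1.17 FPKM. Of these lists, none had a matched marker at 0 in all 3 libraries.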

How the data were processed

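RNA of 3 goat muscle libraries, 1 per stage, was sequenced after total RNA extraction. The authors deposited 1 table of FPKM with 24689 entries. FastQC, TopHat2 and DESeq were among the tools, per the submitters' processing notes, which give neither versions nor roles. Genome build, annotation and counter were not given in the sources used here. How reads matching more than one gene were counted is unknown, so values of close gene copies are uncertain. Since FPKM divides by the library total, the most abundant muscle genes affect every other value.

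Names came from the RefSeq goat gene table (assembly ARS1.2), by gene number (21743 entries matched, among them all 74 members); it was used for names only. Totals, whole reads and gene lengths were worked out from the FPKM steps. Reads were taken as whole at a tolerance of 5e-05, with an allowance for the rounding of the deposited decimals. All 37 members above the filter were resolved, with 19 to 5014 reads. Reads and length that share a factor give fewer reads and a wider interval.

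Differences were taken on log2(FPKM + 1), later minus earlier stage, among 12121 entries with a mean of at least 1 FPKM. Ratios have exact (Clopper-Pearson) intervals of the reads, which cover counting error only. With 1 library per stage there was no test. Members above the filter could be named; of the 8 related lists, first the genes at least 1.5-fold apart and the most abundant. Members and lists were chosen with earlier results of these data known. Related genes and markers were matched by symbol, and those without a match were not analysed here. A few genes are counted but not reported here by name. The steps were tested on simulated reads. 8 alternatives of pseudocount, filter and scaling were run. Python 3.11.15, numpy 2.4.6, pandas 2.3.3, scipy 1.17.1 and matplotlib 3.10.9 were used.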

Additional observations from a re-analysis of the deposited data

How the results depend on the processing

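Under 8 alternatives, 98 of 120 summary values (counts and medians of the members) stayed close to the value reported, and 800 of 834 values of single members moved by less than their counting error. All 66 member differences beyond counting error kept their sign under each alternative that held the gene. With a pseudocount of 0.1, members at least 1.5-fold apart in youth against kid were 6 higher and 2 lower, in place of 2 and 0. At 2-fold, the same setting gave 2 higher in adult against youth, and 3 higher and 2 lower in adult against kid, in place of 1, and of 1 and 0. With a pseudocount of 5, 0 were 1.5-fold higher in youth against kid. In adult against youth that setting gave 3 higher and 2 lower at 1.5-fold and 0 lower at 2-fold, and in adult against kid 3 higher and 2 lower at 1.5-fold. At a mean of at least 5 FPKM, 19 members were left, with 1 at least 1.5-fold higher in youth against kid and 3 lower in adult against youth. Members 1.5-fold higher in youth against kid were 6 after quantile normalization, 4 at a common FPKM sum, 7 after median-of-ratios scaling and 6 with the 10 most abundant entries left out of the sum. The median of all entries in this comparison was -0.0053, -0.0673, 0.0055 and -0.0371 in the same order, in place of -0.08. Shares of all entries under the alternatives are not given here, and the 1.5% above holds for the main setting only. At 2-fold, median-of-ratios scaling gave 2 higher in adult against youth and 3 in adult against kid, and quantile normalization 3 in adult against kid. The members' median in adult against kid was 0.0313 after quantile normalization and 0.0232 after median-of-ratios scaling, in place of -0.09; median-of-ratios scaling brought the median of all entries to 0.02, in place of -0.10. The causes of these changes beyond the limits' own construction were not tested. No paired analysis was possible because each stage had 1 library. Depth limits SLC7A5, SLC6A6 and SLC38A6 most, with 64 reads or fewer per library, and differences between animals of 1 age could not be seen.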
